A study of Mus musculus with 20 samples.

Results

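The genes of the G1/S step and of DNA replication were taken as 53 gene symbols: the factors that license and fire replication origins, the helicase, polymerases and clamp machinery of the fork, the enzymes of deoxynucleotide supply, the E cyclins and E2F factors, and genes that act beside the fork. Of the 53 genes 52 were measured among 20239 genes with 1 probe set each. Pcna, the sliding clamp, was not paired with a probe set and was not analysed here. The tissue was embryonic mouse forebrain, hybridised as 20 single embryos to Affymetrix Mouse Gene ST 1.0 arrays. Wild-type (WT) and Ts1Cje embryos came from Ts1Cje males mated to C57Bl/6J females, and the Ts1Cje line is trisomic for distal chromosome 16, whose extra segment is translocated onto chromosome 12. Breeding pairs ate a purified powdered chow, either plain or with apigenin, a plant flavone, at 2 g per kg of chow from mating onward, which the labels equate to 333 to 400 mg per kg of body weight per day. From each chow 5 WT and 5 Ts1Cje embryos were taken, which makes 4 groups of 5. The labels place the embryos at E15 and the protocol at E15.5, and each group held 3 males and 2 females per the design text. All 20 sample titles name the Ts1Cje line, so the genotype was taken from its own label. The questions were how apigenin given through the mother and how the segmental trisomy changed these genes, in an experiment whose title names apigenin as a candidate treatment before birth for trisomy 21.

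A cell that passes from G1 to S phase frees E2F factors from the retinoblastoma proteins, and E2F factors switch on most of the genes needed to copy DNA. The origin recognition complex, Cdc6 and Cdt1 load rings of MCM proteins onto origins in G1, and Cdc45 and the GINS complex turn the rings into working helicases in S phase. Polymerases, the clamp and its loader, and the enzymes that make deoxynucleotides then copy the strands, while checkpoint proteins watch the forks. In the embryonic forebrain these genes belong to the dividing progenitors of the ventricular and subventricular zones and are switched off as neurons leave the cell cycle. In a bulk sample, fewer cells of a type and less RNA per cell cannot be told apart, so every level below is a mean over all cells of the tissue.

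E2F sites in the promoters of these genes are the sequence feature that the family is best known for. The upstream windows were therefore read from a table of RefSeq promoter sequences (build GRCm38.p6), which held 43 of the 53 genes. A gene with several listed starts counts as holding a motif if any of its windows does. An E2F motif was searched as the letters TTTCCCGC, TTTGGCGC, TTTCGCGC and TTTGCCGC on both strands in the 250 bases before each gene's start. It was present in 11 of the 43 genes (25.6%) and in 583 of all 27025 genes in the table (2.16%). These 11 were Cdc6, Dnmt1, Dtl, Gins3, Mcm5, Mcm6, Mcm7, Orc1, Pola1, Rfc3 and Uhrf1. The CCAAT motif was in 62.8% of the genes, against 37.5% of all, and TTTGAA, a core of the element of late cell cycle genes, was in 16.3%, against 18.3% of all. Among 23 genes of G2/M and mitosis with an entry, 4.35% held the E2F motif, 87% CCAAT and 39.1% TTTGAA. A match describes letters only and is not a bound site, and the windows cover only 1 side of each start. The 53 genes lie on 17 chromosomes.

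Shown here are the windows of Mcm5, Mcm6 and Rfc3, which had the smallest p for apigenin in WT among genes with the motif whose matched bases lie outside every annotated gene, and that of Rrm1, the brightest gene without the motif. The windows of Uhrf1, Dtl and Mcm7 lie in part or whole within an annotated transcript and are not printed. Capitals mark every E2F motif match, each line runs 5′ to 3′ on the gene's own strand, and the Mcm5 stretch ends 42 bases before the listed start.
Mcm5 (chr8:75109259-75109467, plus strand): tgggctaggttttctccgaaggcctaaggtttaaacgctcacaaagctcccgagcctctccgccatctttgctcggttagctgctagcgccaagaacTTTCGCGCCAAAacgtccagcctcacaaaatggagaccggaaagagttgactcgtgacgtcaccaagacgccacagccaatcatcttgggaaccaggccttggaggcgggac
Mcm6 (chr1:128359706-128359955, minus strand): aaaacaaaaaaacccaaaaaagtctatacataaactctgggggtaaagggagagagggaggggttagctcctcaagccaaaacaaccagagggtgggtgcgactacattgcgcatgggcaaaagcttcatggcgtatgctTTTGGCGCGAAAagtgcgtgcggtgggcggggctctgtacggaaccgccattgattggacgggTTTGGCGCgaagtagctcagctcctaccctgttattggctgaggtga
Rfc3 (chr5:151651209-151651458, minus strand): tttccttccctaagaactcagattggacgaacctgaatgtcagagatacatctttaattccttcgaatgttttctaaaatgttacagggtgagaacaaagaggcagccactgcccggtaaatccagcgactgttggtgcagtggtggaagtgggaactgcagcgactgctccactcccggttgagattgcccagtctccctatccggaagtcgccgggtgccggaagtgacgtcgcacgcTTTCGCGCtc
Rrm1 (chr7:102441445-102441694, plus strand): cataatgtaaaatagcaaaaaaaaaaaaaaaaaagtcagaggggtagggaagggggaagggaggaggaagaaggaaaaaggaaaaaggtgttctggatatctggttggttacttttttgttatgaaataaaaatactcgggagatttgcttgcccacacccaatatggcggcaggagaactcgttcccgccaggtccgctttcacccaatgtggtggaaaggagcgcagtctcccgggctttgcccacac
The 2 matches in Mcm5 overlap and read on opposite strands. Mcm6 held 3 matches, of which 2 overlap, and Rfc3 held 1.

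Genes of the trisomic segment separated the genotypes. The mean of 10 genes of the trisomic segment lay at 10.45 to 10.57 in WT and at 10.86 to 10.98 in Ts1Cje embryos (log2). Pairwise correlations of the arrays across genes were 0.991 to 0.997. Forebrain marker genes averaged 9.40 to 9.77 per embryo and hindbrain ones 6.36 to 6.75. The hindbrain mean was highest in WT plain chow replicate 1 (6.75) and Ts1Cje plain chow replicate 5 (6.73). WT plain chow replicate 1 was low in several gene lists below. Embryos of 1 group may have shared a dam, since litters are not given, so p-values measure the spread between these embryos. WT and Ts1Cje embryos on the same chow may also have shared a dam. Embryo numbers in the titles were N87 to N115 for plain chow and N1 to N59 for apigenin, so the treatment and this numbering cannot be told apart. Precision is limited by the 5 arrays of each group.

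Most of the replication genes rose on apigenin in both genotypes by limma, and fewer passed the study's own test. In WT embryos 32 of the 52 measured genes rose, 0 fell and 20 did not pass (limma, adjusted p under 0.05 over 20239 genes), where 12.3% of all genes passed in either direction and 6.46% rose. In Ts1Cje embryos 40 rose, 0 fell and 12 did not pass, where 16.3% of all genes passed and 8.09% rose. With the t-test of the study's methods at its threshold (p under 0.001, false discovery rate of 10%) 13 rose in WT and 19 in Ts1Cje, where 4.27% and 6.58% of all genes passed in either direction. The median log2 difference was 0.22 in WT, a fold of 1.16, with single genes from -0.014 to 0.51. It was 0.23 in Ts1Cje, a fold of 1.17, with genes from -0.035 to 0.54. Over all genes the medians were -0.0054 and 0.0060. Every apigenin embryo lay above every plain chow embryo of its genotype for 26 of the 52 genes in WT, where 5.16% of all genes did so, and for 31 in Ts1Cje, where 7.47% did.

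The mean level of the 52 genes per embryo did not overlap between the chows. The WT values were 8.35, 8.48, 8.45, 8.46 and 8.44 for plain chow and 8.62, 8.67, 8.69, 8.62 and 8.76 for apigenin. The Ts1Cje values were 8.36, 8.46, 8.49, 8.42 and 8.33 for plain chow and 8.69, 8.64, 8.69, 8.61 and 8.66 for apigenin. The lowest WT plain chow embryo was replicate 1. Without it 28 genes rose in WT and 40 in Ts1Cje. Ts1Cje plain chow replicate 5 was the lowest of all embryos. Leaving that embryo out gave 35 genes higher in WT and 32 in Ts1Cje. The share of all genes is not given for these refits, so the counts show only how many of the 52 genes passed. The plot of effects by function shows each gene's difference and interval in both genotypes.

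**Figure D1:**
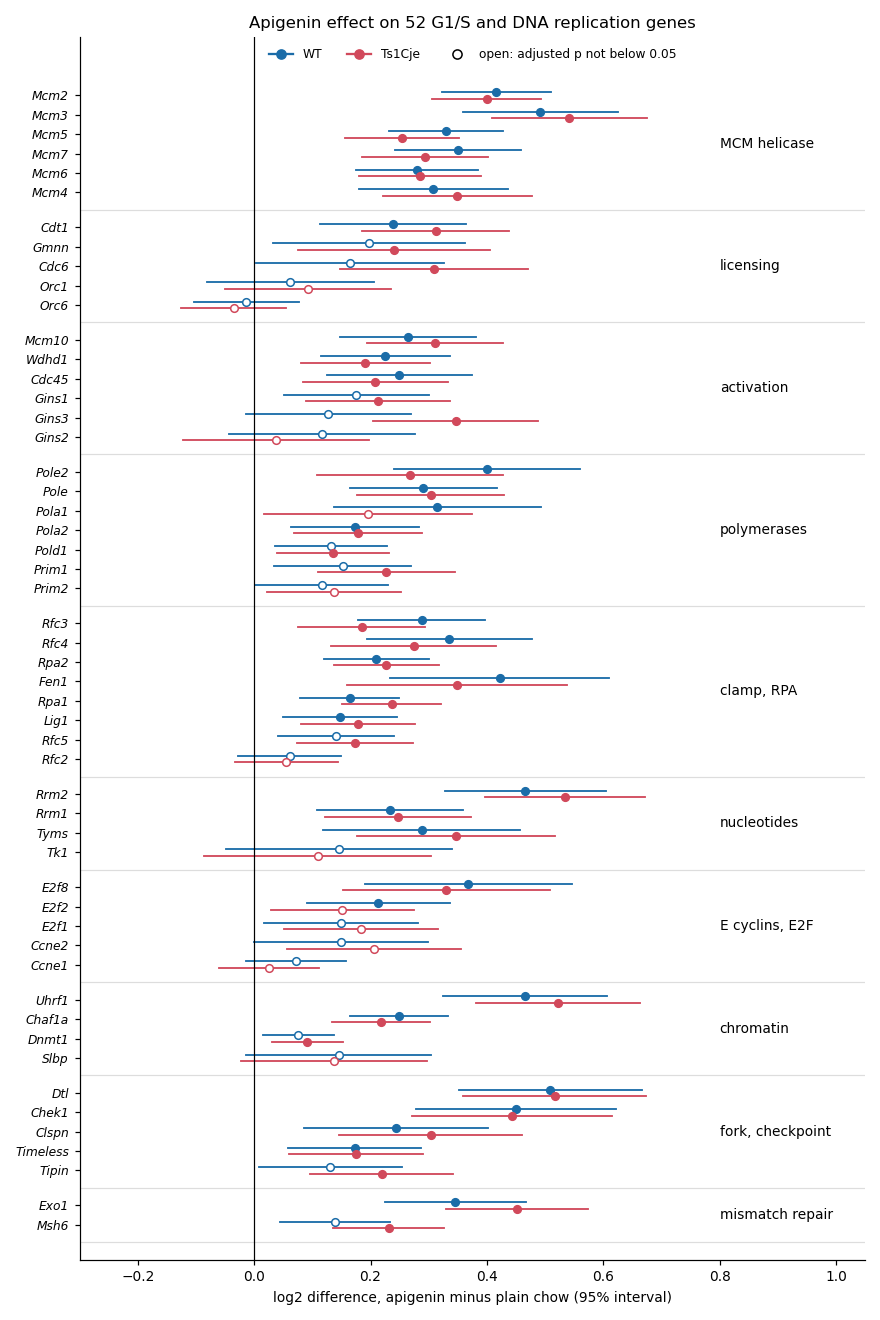
Log2 difference between apigenin and plain chow (x axis) for each of the 52 measured genes, grouped by function, in WT (blue) and Ts1Cje (red) embryos, 5 per group; lines are 95% intervals and open points are genes whose adjusted p was not below 0.05. All but Orc6 lie to the right of 0 in both genotypes, and all 6 MCM genes are filled in both.

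The 6 subunits of the MCM helicase, the ring that unwinds DNA ahead of the fork, rose in both genotypes, where 6.46% and 8.09% of all genes rose. Their median rise was 0.34 in WT and 0.32 in Ts1Cje. Mcm2 lay at 9.08, 9.08, 9.07, 9.09 and 9.05 in the WT embryos on plain chow and at 9.40, 9.50, 9.45, 9.46 and 9.63 in those on apigenin. In Ts1Cje embryos its levels were 8.95, 9.08, 9.07, 8.99 and 8.92 (plain chow) and 9.46, 9.36, 9.47, 9.41 and 9.31 (apigenin). Mcm2 rose by 0.42 (SE 0.045, adjusted p = 2.87e-05) in WT and by 0.40 (SE 0.045, adjusted p = 9.58e-06) in Ts1Cje, with no overlap between the chows in either genotype. Mcm3 had the largest rise of the ring. Its levels were 8.29, 8.24, 8.36, 8.44 and 8.34 in the WT embryos on plain chow and 8.62, 8.80, 8.86, 8.80 and 9.05 in those on apigenin, and in Ts1Cje 8.19, 8.31, 8.42, 8.27 and 8.15 (plain chow) and 8.89, 8.80, 8.77, 8.82 and 8.77 (apigenin). The rise was 0.49 (SE 0.064, adjusted p = 9.71e-05) in WT and 0.54 (SE 0.064, adjusted p = 1.58e-05) in Ts1Cje, with no overlap between the chows in either genotype. Mcm5, whose promoter is shown above, stood at 8.90, 8.90, 8.98, 8.97 and 9.01 in the WT embryos on plain chow and at 9.17, 9.32, 9.25, 9.33 and 9.35 in those on apigenin. The Ts1Cje levels were 8.91, 8.98, 9.01, 8.88 and 8.78 (plain chow) and 9.24, 9.09, 9.17, 9.17 and 9.16 (apigenin). It rose by 0.33 (SE 0.047, adjusted p = 0.000186) and 0.25 (SE 0.047, adjusted p = 0.000845), with no overlap between the chows in either genotype. Mcm4 had the largest p of the ring in WT. It lay at 8.26, 8.61, 8.53, 8.45 and 8.48 in the WT embryos on plain chow and at 8.75, 8.72, 8.75, 8.74 and 8.91 in those on apigenin, and WT apigenin replicate 5 was the highest. In Ts1Cje its levels were 8.29, 8.57, 8.54, 8.47 and 8.40 (plain chow) and 8.87, 8.80, 8.84, 8.71 and 8.81 (apigenin). The rise was 0.31 (SE 0.061, adjusted p = 0.00246) and 0.35 (SE 0.061, adjusted p = 0.000556), with no overlap between the chows in either genotype. Mcm6 rose by 0.28 and 0.28 and Mcm7 by 0.35 and 0.29, and neither overlapped between the chows in either genotype.

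Of 5 factors that load the ring onto origins or hold the loader in check, 1 rose in WT and 3 in Ts1Cje. Among all genes 6.46% and 8.09% rose. Cdt1, which brings the MCM ring to origins, lay at 8.29, 7.96, 8.23, 8.17 and 8.16 in the WT embryos on plain chow and at 8.37, 8.35, 8.38, 8.29 and 8.61 in those on apigenin. It was at 8.01, 8.04, 7.98, 8.10 and 7.89 (plain chow) and 8.27, 8.33, 8.30, 8.36 and 8.32 (apigenin) in Ts1Cje. The rise was 0.24 (SE 0.060, adjusted p = 0.0121) in WT and 0.31 (SE 0.060, adjusted p = 0.00121) in Ts1Cje, with some overlap between the chows in WT and none in Ts1Cje. Gmnn encodes geminin, which holds Cdt1 inactive once S phase has begun. It was at 5.67, 5.92, 5.87, 5.95 and 5.80 in the WT embryos on plain chow and at 5.97, 6.12, 6.06, 6.00 and 6.05 in those on apigenin. The Ts1Cje levels were 5.90, 5.75, 6.09, 5.81 and 5.62 (plain chow) and 6.28, 5.99, 5.99, 5.93 and 6.19 (apigenin). Gmnn differed by 0.20 (95% interval 0.032 to 0.36, adjusted p = 0.116) in WT and rose by 0.24 (SE 0.079, adjusted p = 0.0421) in Ts1Cje, with no overlap between the chows in WT and some in Ts1Cje. Orc6, a subunit of the origin recognition complex, had the largest p of these 5 genes in WT. Its levels were 9.76, 10.06, 9.88, 9.86 and 9.90 in the WT embryos on plain chow and 9.92, 9.90, 9.85, 9.85 and 9.88 in those on apigenin, and 9.89, 9.91, 9.92, 9.95 and 9.89 (plain chow) and 9.87, 9.93, 9.88, 9.82 and 9.88 (apigenin) in Ts1Cje. The difference was -0.013 (95% interval -0.10 to 0.077, adjusted p = 0.894) in WT and -0.035 (95% interval -0.13 to 0.055, adjusted p = 0.681) in Ts1Cje, with overlap between the chows in both genotypes. Cdc6, the loader that works with Cdt1, differed by 0.17 in WT without passing and rose by 0.31 (SE 0.077, adjusted p = 0.00861) in Ts1Cje. Orc1, the largest subunit of the origin complex, did not pass, at 0.062 and 0.093. The call was lost for Gmnn in Ts1Cje without Ts1Cje plain chow replicate 1, 2, 4 or 5 or Ts1Cje apigenin replicate 1 or 5 (adjusted p = 0.0538 to 0.129).

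Of 6 genes that turn the loaded ring into a running helicase or tie it to polymerase alpha, 3 rose in WT and 5 in Ts1Cje. The shares of all genes that rose were 6.46% and 8.09%. Mcm10, a scaffold of helicase activation, lay at 7.71, 7.88, 7.90, 7.84 and 7.82 in the WT embryos on plain chow and at 7.98, 8.12, 8.24, 7.99 and 8.15 in those on apigenin. Ts1Cje embryos had levels of 7.90, 7.89, 7.68, 7.77 and 7.71 (plain chow) and 8.11, 8.17, 8.07, 8.03 and 8.12 (apigenin). It rose by 0.26 (SE 0.056, adjusted p = 0.00356) and 0.31 (SE 0.056, adjusted p = 0.000656), with no overlap between the chows in either genotype. Wdhd1 links the helicase to polymerase alpha. It was at 8.62, 8.74, 8.80, 8.73 and 8.51 in the WT embryos on plain chow and at 8.87, 9.00, 8.83, 8.89 and 8.93 in those on apigenin, and at 8.63, 8.74, 8.74, 8.64 and 8.60 (plain chow) and 8.93, 8.85, 8.94, 8.81 and 8.76 (apigenin) in Ts1Cje. The rise was 0.23 (SE 0.053, adjusted p = 0.00744) and 0.19 (SE 0.053, adjusted p = 0.0166), with no overlap between the chows in either genotype. Cdc45 is a core part of the active helicase. Its levels were 8.11, 8.11, 8.26, 8.12 and 8.18 in the WT embryos on plain chow and 8.43, 8.41, 8.43, 8.22 and 8.54 in those on apigenin. In Ts1Cje they were 8.11, 8.22, 8.15, 8.23 and 7.93 (plain chow) and 8.35, 8.34, 8.39, 8.38 and 8.23 (apigenin). Cdc45 rose by 0.25 (SE 0.060, adjusted p = 0.0083) and 0.21 (SE 0.060, adjusted p = 0.0197), with overlap between the chows in both genotypes. Gins2, a subunit of the GINS complex, did not pass and lay at 8.12, 8.27, 8.58, 8.36 and 8.35 in the WT embryos on plain chow and at 8.60, 8.59, 8.22, 8.41 and 8.46 in those on apigenin. Its Ts1Cje levels were 8.50, 8.63, 8.49, 8.45 and 8.38 (plain chow) and 8.48, 8.53, 8.63, 8.55 and 8.46 (apigenin). The difference was 0.12 (95% interval -0.043 to 0.28, adjusted p = 0.381) in WT and 0.038 (95% interval -0.12 to 0.20, adjusted p = 0.821) in Ts1Cje, with overlap between the chows in both genotypes. The GINS subunits Gins1 (0.21) and Gins3 (0.35) rose in Ts1Cje and did not pass in WT, at 0.18 and 0.13. Calls were lost for Cdc45 in Ts1Cje without Ts1Cje plain chow replicate 5 or Ts1Cje apigenin replicate 3 (adjusted p = 0.0523 to 0.0626), for Wdhd1 in Ts1Cje without Ts1Cje apigenin replicate 3 (adjusted p = 0.0516) and for Gins1 in Ts1Cje without Ts1Cje plain chow replicate 1 or 5 or Ts1Cje apigenin replicate 1 (adjusted p = 0.0515 to 0.0565).

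Primase and the replicative polymerases rose in 4 of 7 cases in WT and 5 of 7 in Ts1Cje, beside 6.46% and 8.09% of all genes. Pole2, the second subunit of the leading-strand polymerase epsilon, lay at 7.39, 7.46, 7.33, 7.55 and 7.41 in the WT embryos on plain chow and at 7.69, 7.70, 7.82, 7.89 and 8.03 in those on apigenin. It was at 7.41, 7.59, 7.69, 7.54 and 7.22 (plain chow) and 7.73, 7.70, 7.82, 7.68 and 7.86 (apigenin) in Ts1Cje. Pole2 rose by 0.40 (SE 0.077, adjusted p = 0.00176) and 0.27 (SE 0.077, adjusted p = 0.0198), with no overlap between the chows in WT and some in Ts1Cje. Pole, the catalytic subunit of the same enzyme, was at 8.48, 8.64, 8.67, 8.68 and 8.64 in the WT embryos on plain chow and at 8.89, 8.88, 8.96, 8.79 and 9.04 in those on apigenin, and WT plain chow replicate 1 was the lowest. Its Ts1Cje levels were 8.39, 8.69, 8.67, 8.61 and 8.47 (plain chow) and 8.96, 8.88, 8.90, 8.79 and 8.82 (apigenin). The rise was 0.29 (SE 0.060, adjusted p = 0.00316) and 0.30 (SE 0.060, adjusted p = 0.00152), with no overlap between the chows in either genotype. Pola1 is the catalytic subunit of polymerase alpha, which extends the RNA primers. It lay at 8.19, 8.62, 8.66, 8.50 and 8.42 in the WT embryos on plain chow and at 8.75, 8.90, 8.96, 8.57 and 8.77 in those on apigenin. The Ts1Cje embryos lay at 8.39, 8.58, 8.69, 8.36 and 8.49 (plain chow) and 8.79, 8.78, 8.68, 8.61 and 8.63 (apigenin). Pola1 rose by 0.31 (SE 0.085, adjusted p = 0.0185) in WT and differed by 0.20 (95% interval 0.018 to 0.37, adjusted p = 0.137) in Ts1Cje, with overlap between the chows in both genotypes. Prim2, the large primase subunit, did not pass in either genotype. It was at 9.20, 9.36, 9.25, 9.39 and 9.34 in the WT embryos on plain chow and at 9.34, 9.38, 9.50, 9.28 and 9.64 in those on apigenin, and at 9.27, 9.31, 9.29, 9.26 and 9.19 (plain chow) and 9.41, 9.39, 9.41, 9.35 and 9.45 (apigenin) in Ts1Cje. The difference was 0.12 (95% interval 0.0014 to 0.23, adjusted p = 0.196) and 0.14 (95% interval 0.023 to 0.25, adjusted p = 0.0999), with some overlap between the chows in WT and none in Ts1Cje. Pola2, the second subunit of polymerase alpha, rose in both genotypes, by 0.17 and 0.18. Prim1, the small primase subunit, and Pold1, the catalytic subunit of the lagging-strand polymerase delta, rose in Ts1Cje, by 0.23 and 0.14, and stood at 0.15 and 0.13 in WT without passing. Calls were lost for Pole2 in Ts1Cje without Ts1Cje plain chow replicate 1 or 5 or Ts1Cje apigenin replicate 3 or 5 (adjusted p = 0.0518 to 0.0618), for Pola1 in WT without WT plain chow replicate 1 or WT apigenin replicate 2 or 3 (adjusted p = 0.0512 to 0.0592) and for Pola2 in Ts1Cje without Ts1Cje plain chow replicate 1 or 5 or Ts1Cje apigenin replicate 3 or 5 (adjusted p = 0.0524 to 0.071). They were also lost for Pola2 in WT without WT plain chow replicate 1, 2, 3 or 5 or WT apigenin replicate 3 or 5 (adjusted p = 0.052 to 0.109) and for Pold1 in Ts1Cje without WT plain chow replicate 1, 2, 3, 4 or 5, Ts1Cje plain chow replicate 3, 4 or 5, WT apigenin replicate 1, 3, 4 or 5 or Ts1Cje apigenin replicate 1, 4 or 5 (adjusted p = 0.0521 to 0.146).

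Clamp loading, single-strand binding and the joining of lagging-strand pieces followed the same direction. In WT 6 of 8 measured genes were higher and in Ts1Cje 7 of 8, beside 6.46% and 8.09% of all genes. Rfc3, a subunit of the loader that opens the sliding clamp, lay at 8.87, 9.14, 9.05, 9.05 and 9.07 in the WT embryos on plain chow and at 9.30, 9.31, 9.41, 9.25 and 9.35 in those on apigenin. Its Ts1Cje levels were 8.86, 9.06, 9.08, 9.03 and 9.06 (plain chow) and 9.20, 9.13, 9.17, 9.19 and 9.32 (apigenin). It rose by 0.29 (SE 0.052, adjusted p = 0.0012) and 0.18 (SE 0.052, adjusted p = 0.0181), with no overlap between the chows in either genotype. Rfc4, another loader subunit, was at 9.06, 9.20, 9.15, 9.33 and 9.32 in the WT embryos on plain chow and at 9.55, 9.51, 9.48, 9.46 and 9.74 in those on apigenin. In Ts1Cje it was at 9.17, 9.27, 9.30, 9.43 and 9.05 (plain chow) and 9.60, 9.54, 9.52, 9.47 and 9.47 (apigenin). The rise was 0.33 (SE 0.068, adjusted p = 0.00275) and 0.27 (SE 0.068, adjusted p = 0.00789), with no overlap between the chows in either genotype. Rpa2 belongs to the complex that coats single-stranded DNA. It was at 8.37, 8.54, 8.53, 8.51 and 8.39 in the WT embryos on plain chow and at 8.67, 8.74, 8.68, 8.67 and 8.62 in those on apigenin, and at 8.34, 8.45, 8.50, 8.39 and 8.40 (plain chow) and 8.63, 8.58, 8.68, 8.60 and 8.71 (apigenin) in Ts1Cje. Rpa2 rose by 0.21 (SE 0.043, adjusted p = 0.00298) and 0.23 (SE 0.043, adjusted p = 0.00106), with no overlap between the chows in either genotype. Rfc2, also of the loader, did not pass. Its levels were 9.38, 9.51, 9.41, 9.36 and 9.37 in the WT embryos on plain chow and 9.48, 9.39, 9.52, 9.52 and 9.43 in those on apigenin, and 9.43, 9.36, 9.48, 9.43 and 9.40 (plain chow) and 9.50, 9.37, 9.56, 9.44 and 9.51 (apigenin) in Ts1Cje. The difference was 0.061 (95% interval -0.027 to 0.15, adjusted p = 0.413) and 0.055 (95% interval -0.033 to 0.14, adjusted p = 0.458), with overlap between the chows in both genotypes. Fen1, the nuclease that trims the flaps of lagging-strand pieces, rose by 0.42 and 0.35. Lig1, the ligase that seals them, rose by 0.15 and 0.18, and the single-strand binding subunit Rpa1 by 0.16 and 0.24. Rfc5, a further loader subunit, rose in Ts1Cje (0.17) and stood at 0.14 in WT. Calls were lost for Rfc3 in Ts1Cje without Ts1Cje plain chow replicate 1 or Ts1Cje apigenin replicate 5 (adjusted p = 0.0575 to 0.0639) and for Lig1 in WT without WT plain chow replicate 1, 4 or 5, Ts1Cje plain chow replicate 4, WT apigenin replicate 2, 3, 4 or 5 or Ts1Cje apigenin replicate 2, 3 or 4 (adjusted p = 0.0504 to 0.116).

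**Figure D2:**
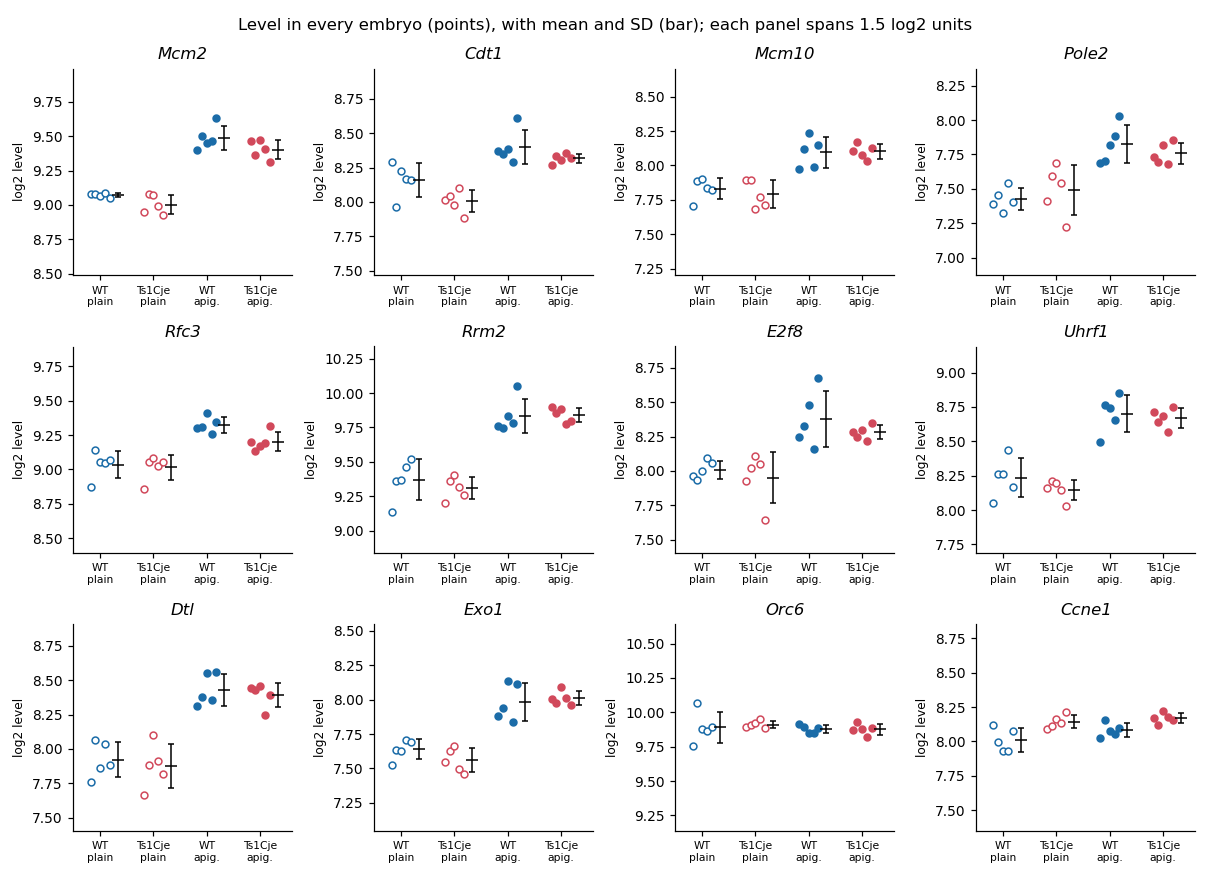
Log2 level in each of the 5 embryos per group (points; open on plain chow, filled on apigenin, blue for WT and red for Ts1Cje) of the gene with the smallest p in WT of each function group, and of Orc6 and Ccne1; the black bar gives the mean and SD. Mcm2, Dtl and Rrm2 show no overlap between the chows, whereas the Orc6 groups all overlap.

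Of the 4 genes of deoxynucleotide supply 3 rose in both genotypes, where 6.46% (WT) and 8.09% (Ts1Cje) of all genes rose. Rrm2 is the S phase subunit of ribonucleotide reductase, which makes deoxynucleotides from ribonucleotides. It lay at 9.14, 9.36, 9.37, 9.46 and 9.52 in the WT embryos on plain chow and at 9.76, 9.75, 9.84, 9.78 and 10.05 in those on apigenin. Ts1Cje embryos had levels of 9.20, 9.36, 9.40, 9.32 and 9.26 (plain chow) and 9.90, 9.86, 9.88, 9.77 and 9.80 (apigenin). Rrm2 rose by 0.47 (SE 0.066, adjusted p = 0.000174) and 0.53 (SE 0.066, adjusted p = 2.34e-05), with no overlap between the chows in either genotype. Rrm1, the partner subunit whose promoter is printed above, was at 9.95, 10.36, 10.21, 10.24 and 10.28 in the WT embryos on plain chow and at 10.35, 10.49, 10.44, 10.45 and 10.47 in those on apigenin. The Ts1Cje levels were 10.16, 10.24, 10.28, 10.21 and 10.09 (plain chow) and 10.51, 10.38, 10.51, 10.36 and 10.44 (apigenin). Its rise was 0.23 (SE 0.060, adjusted p = 0.0136) in WT and 0.25 (SE 0.060, adjusted p = 0.00702) in Ts1Cje, with some overlap between the chows in WT and none in Ts1Cje. Tk1, the salvage kinase for thymidine, did not pass. It was at 7.81, 8.27, 8.31, 7.90 and 8.03 in the WT embryos on plain chow and at 8.12, 8.25, 8.08, 8.25 and 8.34 in those on apigenin, and at 8.02, 8.18, 8.21, 8.13 and 8.03 (plain chow) and 8.10, 8.19, 8.45, 8.01 and 8.37 (apigenin) in Ts1Cje. The difference was 0.15 (95% interval -0.049 to 0.34, adjusted p = 0.366) and 0.11 (95% interval -0.086 to 0.30, adjusted p = 0.517), with overlap between the chows in both genotypes. Tyms, which makes thymidylate from scratch, rose by 0.29 and 0.35. The call was lost for Tyms in WT without WT apigenin replicate 5 (adjusted p = 0.0688).

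The E cyclins and E2F factors, which control entry into S phase, rose in 2 of 5 cases in WT and in 1 of 5 in Ts1Cje. Among all genes 6.46% rose in WT and 8.09% in Ts1Cje. E2f8, a repressor made late in the E2F wave, lay at 7.96, 7.93, 7.997, 8.09 and 8.06 in the WT embryos on plain chow and at 8.24, 8.33, 8.48, 8.16 and 8.68 in those on apigenin. The Ts1Cje embryos lay at 7.93, 8.02, 8.11, 8.05 and 7.65 (plain chow) and 8.28, 8.25, 8.30, 8.22 and 8.35 (apigenin). It rose by 0.37 (SE 0.085, adjusted p = 0.00672) and 0.33 (SE 0.085, adjusted p = 0.0104), with no overlap between the chows in either genotype. E2f2, an activator of the family, was at 7.53, 7.31, 7.45, 7.46 and 7.52 in the WT embryos on plain chow and at 7.75, 7.69, 7.55, 7.68 and 7.66 in those on apigenin. The Ts1Cje levels were 7.40, 7.63, 7.49, 7.60 and 7.46 (plain chow) and 7.71, 7.61, 7.62, 7.85 and 7.56 (apigenin). E2f2 rose by 0.21 (SE 0.059, adjusted p = 0.0206) in WT and differed by 0.15 (95% interval 0.029 to 0.27, adjusted p = 0.0889) in Ts1Cje, with no overlap between the chows in WT and some in Ts1Cje. Ccne1, the cyclin that activates Cdk2 at the G1/S step, did not pass. It was at 8.12, 7.99, 7.93, 7.93 and 8.08 in the WT embryos on plain chow and at 8.03, 8.15, 8.08, 8.06 and 8.10 in those on apigenin, and at 8.09, 8.11, 8.16, 8.13 and 8.21 (plain chow) and 8.17, 8.12, 8.22, 8.18 and 8.15 (apigenin) in Ts1Cje. The difference was 0.072 (95% interval -0.014 to 0.16, adjusted p = 0.299) in WT and 0.026 (95% interval -0.060 to 0.11, adjusted p = 0.763) in Ts1Cje, with overlap between the chows in both genotypes. Ccne2, the second E cyclin, stood at 0.15 and 0.21 and E2f1 at 0.15 and 0.18, with adjusted p of 0.0545 and 0.0538 in Ts1Cje. The call was lost for E2f2 in WT without WT plain chow replicate 2 or WT apigenin replicate 1 (adjusted p = 0.0524 to 0.0553).

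Of 4 genes that copy chromatin and supply histones, 2 rose in WT and 3 in Ts1Cje, beside 6.46% and 8.09% of all genes. Uhrf1 brings the maintenance methyltransferase to newly copied DNA. It lay at 8.05, 8.27, 8.26, 8.44 and 8.17 in the WT embryos on plain chow and at 8.49, 8.76, 8.74, 8.66 and 8.85 in those on apigenin. In Ts1Cje it was at 8.16, 8.21, 8.20, 8.15 and 8.03 (plain chow) and 8.71, 8.64, 8.68, 8.57 and 8.75 (apigenin). Uhrf1 rose by 0.47 (SE 0.067, adjusted p = 0.000211) and 0.52 (SE 0.067, adjusted p = 3.37e-05), with no overlap between the chows in either genotype. Chaf1a, the large subunit of chromatin assembly factor 1, was at 8.09, 8.25, 8.17, 8.22 and 8.10 in the WT embryos on plain chow and at 8.40, 8.39, 8.47, 8.39 and 8.43 in those on apigenin. Its Ts1Cje levels were 8.14, 8.24, 8.17, 8.13 and 8.27 (plain chow) and 8.48, 8.43, 8.39, 8.34 and 8.41 (apigenin). It rose by 0.25 (SE 0.040, adjusted p = 0.00054) and 0.22 (SE 0.040, adjusted p = 0.000875), with no overlap between the chows in either genotype. Slbp, which binds the stem-loop of histone mRNAs, did not pass. Its levels were 8.83, 9.10, 8.76, 8.95 and 8.95 in the WT embryos on plain chow and 9.08, 8.99, 9.13, 9.01 and 9.11 in those on apigenin, and 8.80, 8.80, 8.87, 9.08 and 9.01 (plain chow) and 8.97, 9.17, 9.08, 8.80 and 9.22 (apigenin) in Ts1Cje. The difference was 0.14 (95% interval -0.015 to 0.30, adjusted p = 0.253) and 0.14 (95% interval -0.022 to 0.30, adjusted p = 0.267), with overlap between the chows in both genotypes. Dnmt1, the maintenance methyltransferase, rose by 0.091 (SE 0.029, adjusted p = 0.0378) in Ts1Cje and stood at 0.076 in WT. The Dnmt1 call was lost whichever of the 10 Ts1Cje embryos was left out (adjusted p = 0.0501 to 0.0763).

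The genes of fork protection, the S phase checkpoint and Cdt1 removal rose in 4 of 5 cases in WT and 5 of 5 in Ts1Cje. The matching shares of all genes were 6.46% and 8.09%. Dtl directs the ubiquitin ligase that removes Cdt1 in S phase. It lay at 7.76, 8.06, 7.86, 8.04 and 7.88 in the WT embryos on plain chow and at 8.31, 8.38, 8.55, 8.36 and 8.56 in those on apigenin. Ts1Cje embryos had levels of 7.66, 7.89, 8.10, 7.91 and 7.82 (plain chow) and 8.44, 8.43, 8.46, 8.24 and 8.39 (apigenin). Dtl rose by 0.51 (SE 0.075, adjusted p = 0.000245) and 0.52 (SE 0.075, adjusted p = 0.000101), with no overlap between the chows in either genotype. Its WT difference was the largest of the 52 genes. Chek1, the checkpoint kinase that answers stalled forks, was at 7.98, 8.12, 8.21, 8.02 and 7.95 in the WT embryos on plain chow and at 8.55, 8.54, 8.54, 8.17 and 8.72 in those on apigenin. Its Ts1Cje levels were 7.99, 8.03, 8.16, 8.03 and 7.87 (plain chow) and 8.46, 8.64, 8.47, 8.34 and 8.38 (apigenin). It rose by 0.45 (SE 0.082, adjusted p = 0.00127) in WT and by 0.44 (SE 0.082, adjusted p = 0.000897) in Ts1Cje, with some overlap between the chows in WT and none in Ts1Cje. Tipin protects forks together with Timeless. It was at 9.01, 9.25, 9.01, 9.12 and 9.14 in the WT embryos on plain chow and at 9.22, 9.17, 9.38, 9.16 and 9.25 in those on apigenin, and at 8.94, 8.96, 9.08, 9.08 and 8.81 (plain chow) and 9.15, 9.16, 9.31, 9.14 and 9.19 (apigenin) in Ts1Cje. Tipin differed by 0.13 (95% interval 0.0084 to 0.25, adjusted p = 0.169) in WT and rose by 0.22 (SE 0.059, adjusted p = 0.0134) in Ts1Cje, with some overlap between the chows in WT and none in Ts1Cje. Clspn encodes claspin, the adaptor through which Chek1 is activated, and rose by 0.24 and 0.30. Timeless rose by 0.17 and 0.18. Calls were lost for Clspn in WT without WT plain chow replicate 2, 3, 4 or 5 or WT apigenin replicate 2, 3 or 5 (adjusted p = 0.05 to 0.105) and for Timeless in Ts1Cje without Ts1Cje plain chow replicate 1, 4 or 5 or Ts1Cje apigenin replicate 1, 3 or 5 (adjusted p = 0.0744 to 0.0993). They were also lost for Timeless in WT without WT plain chow replicate 1, 2, 3, 4 or 5, WT apigenin replicate 2, 3 or 4 or Ts1Cje apigenin replicate 3 or 5 (adjusted p = 0.0506 to 0.116).

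Of 2 mismatch repair genes, whose products correct copying errors, 1 rose in WT and 2 in Ts1Cje, beside 6.46% and 8.09% of all genes. Exo1, the nuclease that removes the faulty strand, lay at 7.52, 7.63, 7.63, 7.71 and 7.70 in the WT embryos on plain chow and at 7.88, 7.94, 8.14, 7.84 and 8.11 in those on apigenin. The Ts1Cje embryos lay at 7.54, 7.63, 7.67, 7.50 and 7.46 (plain chow) and 8.003, 7.98, 8.10, 8.01 and 7.96 (apigenin). It rose by 0.35 (SE 0.058, adjusted p = 0.000711) and 0.45 (SE 0.058, adjusted p = 3.25e-05), with no overlap between the chows in either genotype. Msh6, which recognises mismatches, was at 8.84, 8.99, 8.87, 8.88 and 8.84 in the WT embryos on plain chow and at 9.00, 9.01, 9.07, 8.95 and 9.09 in those on apigenin. Its Ts1Cje levels were 8.80, 8.91, 8.99, 8.79 and 8.76 (plain chow) and 9.12, 9.07, 9.10, 9.02 and 9.09 (apigenin). Msh6 differed by 0.14 (95% interval 0.044 to 0.23, adjusted p = 0.0501) in WT and rose by 0.23 (SE 0.045, adjusted p = 0.00139) in Ts1Cje, with some overlap between the chows in WT and none in Ts1Cje.

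**Figure D3:**
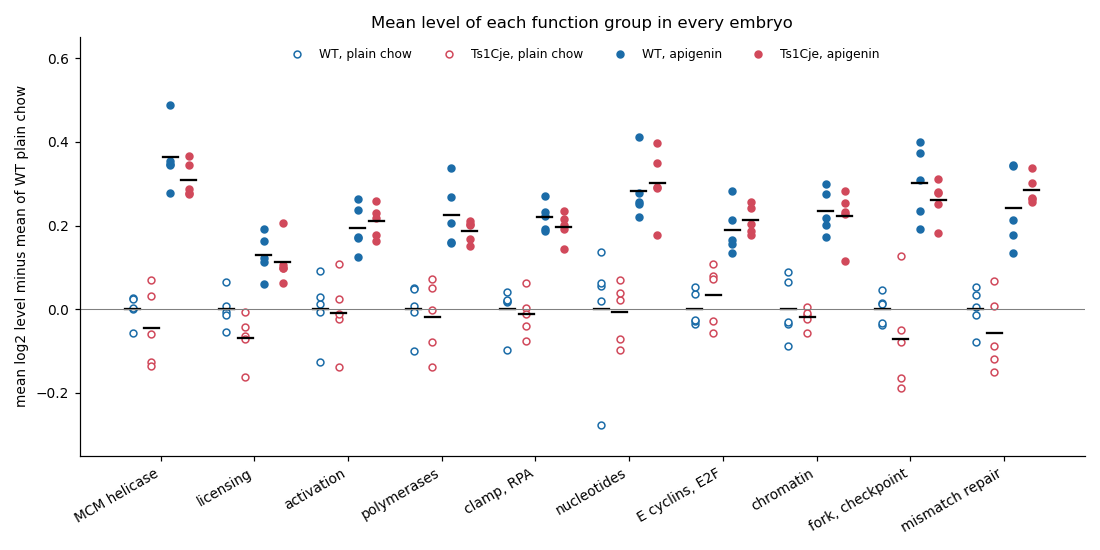
Mean log2 level of each function group in every embryo, relative to the mean of the WT plain chow group (y axis); open points are plain chow, filled points apigenin, blue WT and red Ts1Cje, and black bars are group means. In every function group the apigenin means lie above the plain chow means of both genotypes; 1 WT plain chow embryo, replicate 1, is low for nucleotide supply.

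The 2 genotypes called largely the same genes. Of the genes that rose, 30 did so in both, which is 93.8% of the WT calls and 75% of the Ts1Cje calls. The same overlap was not counted over all called genes, so it is not known whether it is particular to these genes. E2f2 and Pola1 passed in WT alone. Cdc6, Dnmt1, Gins1, Gins3, Gmnn, Msh6, Pold1, Prim1, Rfc5 and Tipin passed in Ts1Cje alone, and 10 genes passed in neither. The WT and Ts1Cje comparisons use different embryos for their means but 1 spread per gene, pooled over all 20 arrays, so their calls are not independent. Embryos of both genotypes on the same chow may also have come from the same litters. Passing in 1 genotype alone is not a difference between genotypes. Tested directly, the interaction of genotype and apigenin called 0 of the 52 genes and 0% of all genes (limma). At an unadjusted p under 0.05 it held 1 of the 52 genes, where 2.63% of all genes passed, and limma called 0 in every alternative run. That gene was Gins3, chosen here for its p, whose apigenin effect was 0.22 larger in Ts1Cje (unadjusted p = 0.0339 in limma, not past the adjustment). The 95% intervals of the interaction ran from -0.37 for Pola1 to 0.42 for Gins3, with a median half-width of 0.18.

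Genes with an E2F motif in the upstream window and genes without one were both mostly higher on apigenin. In WT, where 6.46% of all genes rose, 7 of the 11 genes with the motif did. Their median was 0.29 and their range 0.062 to 0.51. Of the 31 measured genes with a window and no motif 22 rose, with a median of 0.23 and a range of -0.014 to 0.49. Dtl (0.51), Uhrf1 (0.47) and Mcm7 (0.35) held the motif and rose, and Orc1, Cdc6, Gins3 and Dnmt1 held it and did not pass in WT. Mcm3 (0.49), Rrm2 (0.47) and Chek1 (0.45) rose with no match in these letters.

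Ts1Cje embryos did not differ from WT embryos in these genes beyond the threshold on either chow. On plain chow limma called 0 of 52 genes, with 0.311% of all genes called, and the median difference was -0.035, against -0.0088 over all genes. At an unadjusted p under 0.05 there were 5 genes, of which Ccne1 was higher and Cdc6, Cdt1, Gins3 and Tipin were lower in Ts1Cje, where 6.69% of all genes passed. On apigenin limma again called 0, with 0.311% of all genes called, and the median was -0.012, against -0.0043 over all genes. At an unadjusted p under 0.05 there were again 5, of which Ccne1 and Ccne2 were higher and Mcm5, Mcm7 and Rfc3 lower, where 5.23% of all genes passed. Every alternative run called 0 on both chows. The 95% intervals reached from -0.33 for Cdc6 to 0.31 for Gins2 on plain chow and from -0.28 for E2f8 to 0.31 for Ccne2 on apigenin, with a median half-width of 0.12.

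Ccne1 came closest on plain chow, with a difference of 0.13 (95% interval 0.046 to 0.22, adjusted p = 0.387), and stood at 0.086 (adjusted p = 0.953) on apigenin. Ccne2 on apigenin was the 1 gene for which all Ts1Cje embryos were above all WT embryos, where 0.855% of all genes were, with a difference of 0.16 (95% interval 0.015 to 0.31, adjusted p = 0.895). Within runs of neighbouring sample numbers, the median genotype difference of the 52 genes was -0.078 and 0.0041 for plain chow and -0.0036 and -0.024 for apigenin, with 2 or 3 embryos per genotype in a run.

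The members include 3 genes of chromosome 16, Cdc45, Mcm4 and Rfc4, all of which precede the trisomic segment in gene order. Their genotype differences were -0.027, -0.0093 and 0.032 on plain chow. Of the replication genes outside the member list, Chaf1b and Donson lie inside the segment. Chaf1b, the partner of Chaf1a in chromatin assembly factor 1, lay at 8.60, 8.68, 8.42, 8.76 and 8.68 in WT and 9.06, 9.12, 9.07, 9.17 and 9.02 in Ts1Cje embryos on plain chow. On apigenin it was at 8.72, 8.76, 8.69, 8.76 and 8.87 in WT and 9.21, 9.25, 9.20, 9.16 and 9.22 in Ts1Cje. The genotypes did not overlap on either chow, and Chaf1b was higher in Ts1Cje by 0.46 (SE 0.052, adjusted p = 2.07e-05) and 0.45 (SE 0.052, adjusted p = 3.1e-05). Donson, a factor of helicase activation, was at 7.90, 8.27, 8.14, 8.13 and 7.86 in WT and 8.64, 8.56, 8.77, 8.53 and 8.66 in Ts1Cje on plain chow. On apigenin it was at 8.14, 8.15, 8.19, 8.25 and 8.18 in WT and 8.72, 8.72, 8.67, 8.70 and 8.66 in Ts1Cje, without overlap. It was higher by 0.57 (SE 0.062, adjusted p = 1.72e-05) and 0.52 (SE 0.062, adjusted p = 5.79e-05). On plain chow neither passed the study methods' t-test with Benjamini-Hochberg adjustment (adjusted p = 0.0504 and 0.0836). Chaf1a, which pairs with Chaf1b in the cell, differed between genotypes by 0.023 (95% interval -0.061 to 0.11, adjusted p = 0.968) and -0.0087 (95% interval -0.093 to 0.075, adjusted p = 0.999).

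**Figure D4:**
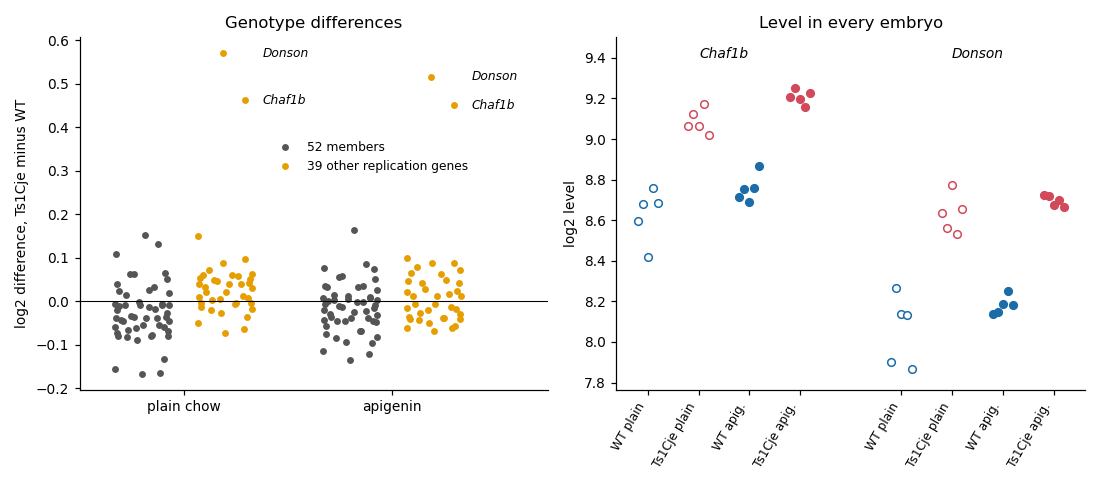
Left, log2 difference between Ts1Cje and WT embryos on each chow for the 52 members (grey) and 39 other replication genes (orange), 1 point per gene. Right, log2 level of Chaf1b and Donson in each of the 5 embryos per group (open on plain chow, filled on apigenin, blue WT, red Ts1Cje); the Ts1Cje embryos lie above the WT embryos on both chows, while the members stay between -0.17 and 0.16.

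Genes of DNA replication outside the member list were read from a second list of 40, of which 39 were measured. On apigenin 15 rose and 0 fell in WT, with a median of 0.13, and 17 rose and 0 fell in Ts1Cje, with a median of 0.12. Of all genes 6.46% rose and 5.85% fell in WT, and 8.09% rose and 8.17% fell in Ts1Cje. Asf1b, a chaperone that hands histones to the copied strands, rose by 0.34 (SE 0.060, adjusted p = 0.000983) and 0.28 (SE 0.060, adjusted p = 0.00245). Its levels were 7.84, 7.67, 7.86, 7.88 and 7.96 in WT on plain chow and 8.08, 8.14, 8.24, 8.10 and 8.37 on apigenin. Nasp, another histone chaperone, rose by 0.25 (SE 0.046, adjusted p = 0.00129) and 0.34 (SE 0.046, adjusted p = 5.15e-05). Dbf4, the activator of the Cdc7 kinase that fires origins, rose by 0.36 (SE 0.069, adjusted p = 0.00161) and 0.29 (SE 0.069, adjusted p = 0.00539). Dbf4 lay at 8.38, 8.80, 8.76, 8.68 and 8.70 (plain chow) and 9.04, 9.02, 9.02, 8.96 and 9.09 (apigenin) in WT, and WT plain chow replicate 1 was low for both Dbf4 and Nasp. Between genotypes only Chaf1b and Donson of the 39 passed, on both chows, where 0.311% of all genes passed on each chow.

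Of 27 further genes of G1/S control, 26 were measured. On apigenin 15 rose and 1 fell in WT, with a median of 0.19, and 15 rose and 1 fell in Ts1Cje, also with a median of 0.19, beside the same shares of all genes (6.46% and 8.09% higher, 5.85% and 8.17% lower). Ccnd2, a D cyclin, rose by 0.35 (SE 0.049, adjusted p = 0.000152) and 0.39 (SE 0.049, adjusted p = 2.53e-05). Skp2, which marks the inhibitor p27 for removal, rose by 0.34 (SE 0.048, adjusted p = 0.000172) and 0.27 (SE 0.048, adjusted p = 0.000577), and Cdk2, the kinase partner of the E cyclins, by 0.37 (SE 0.054, adjusted p = 0.000242) and 0.36 (SE 0.054, adjusted p = 0.000135). The 1 gene of the 26 that fell, a share below that of all genes, was Cdkn1a, the inhibitor p21. It lay at 9.11, 8.92, 8.85, 9.09 and 9.08 in WT embryos on plain chow and at 8.49, 8.43, 8.71, 8.77 and 8.86 on apigenin. In Ts1Cje its levels were 9.23, 8.79, 8.84, 9.32 and 9.17 (plain chow) and 8.33, 8.56, 8.63, 8.49 and 8.87 (apigenin). It fell by 0.36 (SE 0.11, adjusted p = 0.0399) and by 0.49 (SE 0.11, adjusted p = 0.00393). The call was lost for Cdkn1a in WT without WT plain chow replicate 1, 4 or 5 or WT apigenin replicate 1, 2 or 3 (adjusted p = 0.06 to 0.111). Of the 26 genes 0 passed between genotypes on either chow by limma, where 0.311% of all genes passed on each chow. At an unadjusted p under 0.05 in limma there were 0 on plain chow and 1 on apigenin, where 6.69% and 5.23% of all genes passed.

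Other genes moved with the replication genes on apigenin, and their part in the result was not tested. Of all genes 6.46% rose and 5.85% fell in WT, and 8.09% rose and 8.17% fell in Ts1Cje. Genes of G2/M and mitosis rose in 25 of 25 cases in both genotypes, with medians of 0.35 and 0.40. Their mean lay at 8.70 to 8.94 in WT and 8.69 to 8.99 in Ts1Cje on plain chow, and at 9.15 to 9.29 and 9.16 to 9.32 on apigenin. Of 12 radial glia genes 6 rose in each genotype and 0 fell, with means of 9.64 to 9.76 and 9.61 to 9.73 on plain chow and of 9.82 to 9.97 and 9.87 to 9.94 on apigenin in WT and Ts1Cje. Of 9 intermediate progenitor genes 8 rose in WT and 9 in Ts1Cje, from means of 8.46 to 8.55 and 8.32 to 8.53 to means of 8.75 to 8.94 and 8.77 to 8.93. Of 16 genes of postmitotic neurons 1 rose and 5 fell in WT, and 3 rose and 6 fell in Ts1Cje. Their mean per embryo was 11.36 to 11.41 and 11.34 to 11.39 on plain chow, and 11.28 to 11.36 and 11.28 to 11.34 on apigenin. Of 10 endothelial genes limma called 0 in WT, with 3 at an unadjusted p under 0.05, and Flt1 alone fell in Ts1Cje. Of 10 microglial genes it called 0 in both genotypes, with 1 and 3 at an unadjusted p under 0.05, where 24.7% and 27.4% of all genes passed that level in WT and Ts1Cje. Of 10 genes of the meninges Ogn fell in both. Of 7 forebrain marker genes 1 rose in WT and 3 in Ts1Cje, and 0 fell, with medians of 0.14 and 0.15. Their mean per embryo was 9.43 to 9.66 and 9.40 to 9.61 on plain chow, and 9.62 to 9.77 and 9.61 to 9.69 on apigenin.

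The embryonic globin gene Hbb-y moved further than any of these. Hbb-y, a beta-like globin of primitive red cells, lay at 6.78, 7.13, 6.73, 7.00 and 7.22 in WT embryos on plain chow and at 9.46, 9.87, 9.66, 9.26 and 10.32 on apigenin. In Ts1Cje its levels were 6.53, 6.92, 7.67, 7.23 and 6.32 (plain chow) and 9.90, 9.51, 10.30, 9.16 and 9.85 (apigenin). It rose by 2.75 (SE 0.24, adjusted p = 2.58e-06) and 2.81 (SE 0.24, adjusted p = 1.15e-06). Of 7 measured erythroid genes of 10 listed, Hbb-y and Hba-x, an alpha-like embryonic globin, rose and 5 did not pass in either genotype. Another embryonic globin, Hbb-bh1, was among these 5. The median difference of the 7 was 0.12 in WT and 0.12 in Ts1Cje. The mean of the 7 lay at 7.49 to 7.69 in WT and 7.35 to 7.68 in Ts1Cje on plain chow, and at 7.96 to 8.32 and 7.89 to 8.26 on apigenin. Whether embryos on the 2 chows were of the same developmental age was not tested.

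**Figure D5:**
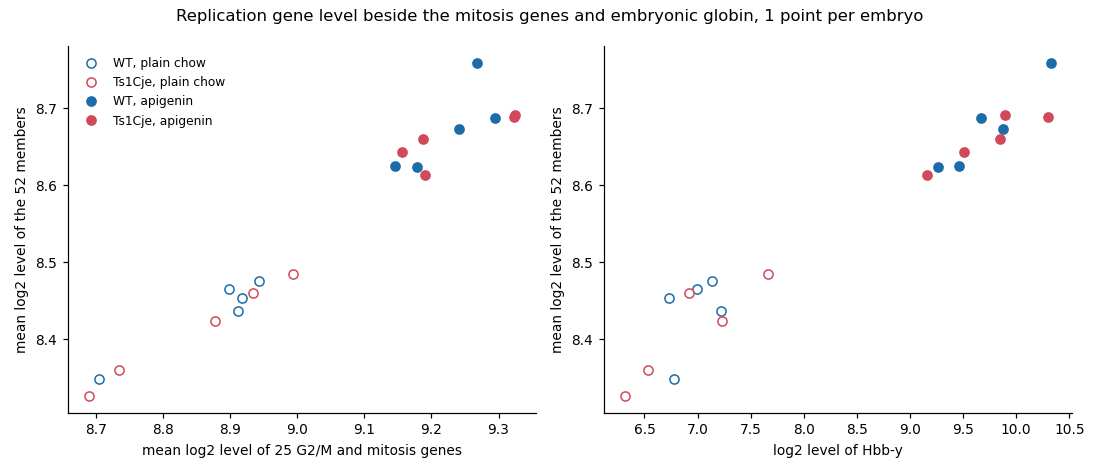
Mean log2 level of the 52 replication genes in each embryo (y axis) beside the mean of 25 G2/M and mitosis genes (left) and the level of Hbb-y (right); open points are plain chow, filled apigenin, blue WT, red Ts1Cje. The plain chow embryos (8.33 to 8.49) and the apigenin embryos (8.61 to 8.76) form separate clusters on every axis, so no correlation over the 20 embryos is given.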

How the data were processed

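Each array held the labelled RNA of 1 embryo's forebrain, and the labels' protocols required an RNA integrity number over 9. The values used are log2 levels of probe sets that the authors deposited after RMA, a method named in the submitters' processing notes. RMA subtracts background, gives all arrays 1 distribution and combines the probes of a set. It therefore removes shifts of a whole array and shrinks changes of dim genes. The RMA version, chip definition and genome build were not given in the sources used here. Of 21225 probe sets 20239 carried 1 gene symbol and were tested, and 986 carried none and were left out. Groups follow the genotype and treatment labels. Replicate numbers are in accession order and pair nothing.

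A linear model with 1 mean per group was fitted to all 20 arrays with limma 3.58.1 in R 4.3.3 (lmFit, eBayes). P-values are two-sided and were adjusted by Benjamini-Hochberg across the 20239 genes, and a gene passed at an adjusted p under 0.05. SE and 95% intervals come from that fit. The fit was tried on simulated data with independent noise for each gene and embryo, which does not cover embryos that shared a dam. The members and every gene list were chosen with earlier results of these data known, so list counts are descriptions without a test. Embryo values are given for the 2 genes of each function group (3 where it has 6 or more) with the smallest p for apigenin in WT and for the gene with the largest. Of the lists of other replication and other G1/S genes, up to 3 with the smallest p that rose and 3 that fell are named, plus Chaf1b and Donson. Tried as alternatives were only the 2 groups compared, other thresholds, the t-test and threshold of the study's design text (p of 0.001, false discovery rate of 10%), leaving out the dimmest 20% or 40% of genes, repeated quantile normalization, median centring, arrayWeights, eBayes with trend and robust, number runs as blocks, a Y-linked covariate and each embryo left out. Promoter letters came from a RefSeq table of GRCm38.p6.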

Additional observations from a re-analysis of the deposited data

Results flagged for a closer look

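In 13 of 292 groups of 5 embryos tested, 1 embryo stood apart from the other 4 by Dixon's criterion, and chance flags about 1 group in 20. WT plain chow replicate 1 was the low embryo for Pole (8.48), Nasp (9.41), Dbf4 (8.38), the mean of the clamp and single-strand binding genes (8.80) and the mean of the deoxynucleotide genes (8.66), all as log2 levels. WT apigenin replicate 5 was high for Mcm4 (8.91) and Gins3 (7.94). Ts1Cje plain chow replicate 1 was low for Rfc3 (8.86), replicate 3 was high for Clspn (7.82) and replicate 5 was low for Pold1 (7.96). On apigenin, Ts1Cje replicate 5 was low for Cdc45 (8.23), replicate 3 was high for Tipin (9.31) and replicate 1 was high for Orc1 (6.40). Without WT plain chow replicate 1 the median apigenin difference of the 52 genes in WT was 0.19, with 28 genes higher. That count is given without the share of all genes.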

How the results depend on the processing

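The direction of the members' median under apigenin was the same under every alternative run, in both genotypes. The count of members higher on apigenin moved by over 1.5 times at the study's threshold, to 26 in Ts1Cje, where WT had 25. It also moved with the methods' t-test at that threshold, an alternative chosen after seeing the data, to 13 in WT and 19 in Ts1Cje. By that t-test 4.27% and 6.58% of all genes passed in either direction. The share of all genes is not given for the other alternatives, so their counts show only how many members passed. Leaving out 1 embryo at a time gave 27 to 35 in WT, with medians of 0.19 to 0.23, and 32 to 41 in Ts1Cje, with medians of 0.20 to 0.25. Leaving out 1 embryo gave genotype medians of -0.053 to -0.0085 on plain chow and -0.023 to 0.0031 on apigenin, and interaction medians of -0.0051 to 0.040, with 0 calls throughout by limma. Of 32 members called in WT 13 kept the call under all 33 alternatives, and of 40 in Ts1Cje 16 did. These alternatives include the stricter thresholds above. In the runs that left out 1 embryo, 25 of the 32 and 30 of the 40 kept the call every time. No called member reversed its direction. With runs of sample numbers as a random block 35 and 42 were higher (correlation within runs -0.053). Every run of numbers held a single chow, so this alternative could not separate the numbering from apigenin. No paired analysis was possible because the labels give the groups no shared replicate numbers. The table gives no signal over background, so how far background limits dim genes such as Orc1 and Gmnn is unknown.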
